A study of Mus musculus with 22 samples.

Results

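The transcripts of 10 genes of the epidermal growth factor (EGF) receptor system were followed in the lungs of mice that had received Mitsui7, a long, stiff multi-walled carbon nanotube (MWCNT). The genes were taken by name as 6 ligands (Areg, Ereg, Hbegf, Tgfa, Btc and Nrg1), 3 receptors (Egfr, Erbb2 and Erbb3) and 1 feedback inhibitor (Errfi1), of 20018 genes named on the array. Female C57BL/6 mice aged 8 weeks had a single intratracheal instillation of 18, 54 or 162 µg of Mitsui7 in vehicle, or of vehicle alone (saline with bronchoalveolar lavage fluid), and the right lung was taken after 24 h. Each of the 22 mice, 5 controls, 6 at 18 µg, 5 with 54 µg and 6 at 162 µg, was hybridised to 1 two-colour Agilent array with its RNA in Cy5 and a universal mouse reference RNA in Cy3. All groups shared the anaesthesia and the instillation, and no mouse without an instillation was analysed here. Values were log2 ratios of lung over reference, so that a level says how a probe's lung signal stood to its own reference signal and cannot be set against the level of another probe.

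The EGF family signals through receptor tyrosine kinases of the ErbB family, which pair when a ligand binds and then pass the signal on through RAS and MAP kinases, PI3 kinase and STAT factors. Ligands are made as membrane proteins and released by proteases, mainly ADAM17 and ADAM10. Amphiregulin (Areg), epiregulin (Ereg), heparin-binding EGF (Hbegf), transforming growth factor alpha (Tgfa) and betacellulin (Btc) all bind the EGF receptor, and neuregulin 1 (Nrg1) binds ERBB3 and ERBB4. ERBB2 binds no known ligand and acts as a partner, ERBB3 has little kinase activity of its own, and the product of Errfi1 (also called Mig6) binds active EGF receptors and blocks their kinase. In the lung the system is known for its part in growth and repair of the airway and alveolar epithelium.

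The RefSeq promoter table (build GRCm38.p6) held 7 starts for 6 of the 10 genes, and no entry for Ereg, Hbegf, Nrg1 and Erbb3. The windows of Areg and of 1 of the 2 starts of Errfi1 are given, because these are the called genes of this family with an entry and both windows hold the same pair of motifs. Each window runs from 250 bases before the start to 50 bases into the transcript on the + strand. In capitals stand the cyclic AMP response element TGACGTCA and the TATA box TATAAA.
Areg, chr5:91139349-91139648: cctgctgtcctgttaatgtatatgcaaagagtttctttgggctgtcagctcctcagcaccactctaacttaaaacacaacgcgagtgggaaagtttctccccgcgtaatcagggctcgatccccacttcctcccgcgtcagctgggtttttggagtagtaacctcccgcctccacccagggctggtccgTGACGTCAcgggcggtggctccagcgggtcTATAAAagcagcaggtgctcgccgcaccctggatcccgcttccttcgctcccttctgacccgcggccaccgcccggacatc
Errfi1, chr4:150854820-150855119: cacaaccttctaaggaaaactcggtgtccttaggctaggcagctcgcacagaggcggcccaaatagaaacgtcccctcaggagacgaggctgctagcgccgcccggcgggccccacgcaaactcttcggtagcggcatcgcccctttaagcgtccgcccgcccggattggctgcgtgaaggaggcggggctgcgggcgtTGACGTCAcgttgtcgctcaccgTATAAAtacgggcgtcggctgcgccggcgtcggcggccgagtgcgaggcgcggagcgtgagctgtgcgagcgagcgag
The cyclic AMP response element began 61 bases before the start in Areg and 51 bases before it in Errfi1, and the TATA box 31 and 28 bases before it. Searched on both strands, TGACGTCA was in 1.79% of the 32851 windows of the table and TATAAA in 13.6%. The other Errfi1 start (chr4:150853546-150853845) and the starts of Tgfa, Btc, Egfr and Erbb2 held neither. The AP-1 site TGANTCA, found in 7.81% of windows, and the E-box CACGTG, found in 7.15%, were in none of the 7. The Sp1 site GGGCGG (35.7% of windows) was in the Areg, Tgfa and Egfr windows and in the Errfi1 window shown, and CCAAT (37.4% of windows) was in that Errfi1 window and in Erbb2. These are matches of letters and say nothing of binding.

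All 10 genes were expressed, meaning that 80% or more of the arrays in 1 group had a Cy5 signal above the negative control level. A gene is called below where the adjusted p was at most 0.05, the change was at least 1.5-fold and the gene was expressed, and changes are from a fit with dose and slide on all 22 arrays, in which the 3 doses share the same 5 controls. Between 50.3% and 83.5% of probes lay above background on an array, and the Cy5 signal was a median 2.00 times its local background in the control group and 1.44 to 1.72 times in the dosed groups. The arrays sat on 7 slides, each scanned as 1 unit, and 2 slides held no control. Markers of alveolar type 2 cells were all expressed (7 of 7), with a mean log2 ratio between 5.44 and 5.84 in the controls, as were the measured markers of club cells (5 of 5). One array stood apart: control mouse 2 had a mean log2 ratio of 4.14 over the neutrophil markers, against 1.54 to 2.04 in the other 4 controls, and of 1.71 over recruited monocyte markers, against 0.35 to 1.08. Without this mouse the counts of called members were the same in all 6 comparisons, and its values are named where it matters.

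At 162 µg, 4 of the 10 genes were called, all higher: Areg, Ereg, Hbegf and Errfi1. Of all 16429 expressed genes, 3.32% were called higher at this dose. The 10 genes were chosen with earlier results of these data known, so setting these shares side by side is no test. At 54 µg Hbegf alone was called (0.219% of expressed genes higher), and at 18 µg none was (0.633% higher), with 2 members, Hbegf and Btc, at an unadjusted p under 0.05 by limma. No member was called lower at any dose. The median log2 change of the 10 members was -0.045 at 18 µg, 0.13 with 54 µg and 0.20 at 162 µg, beside -0.022, -0.012 and -0.0073 over all expressed genes. On the Cy5 channel alone the same 4 genes were called at 162 µg and Hbegf at 54 µg, and with the deposited table Areg, Ereg and Hbegf at 162 µg and Hbegf at 54 µg. With each array only centred on its median, the changes of the 4 genes at 162 µg were between 0.61 and 1.41 and none of the 10 was called, and the median of all expressed genes then moved to -0.19. None was called without normalization either. Without the 2 slides that held no control, 3 of the 10 remained called at 162 µg (Areg, Ereg and Hbegf) and Hbegf was called at 18 µg too.

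**Figure D1:**
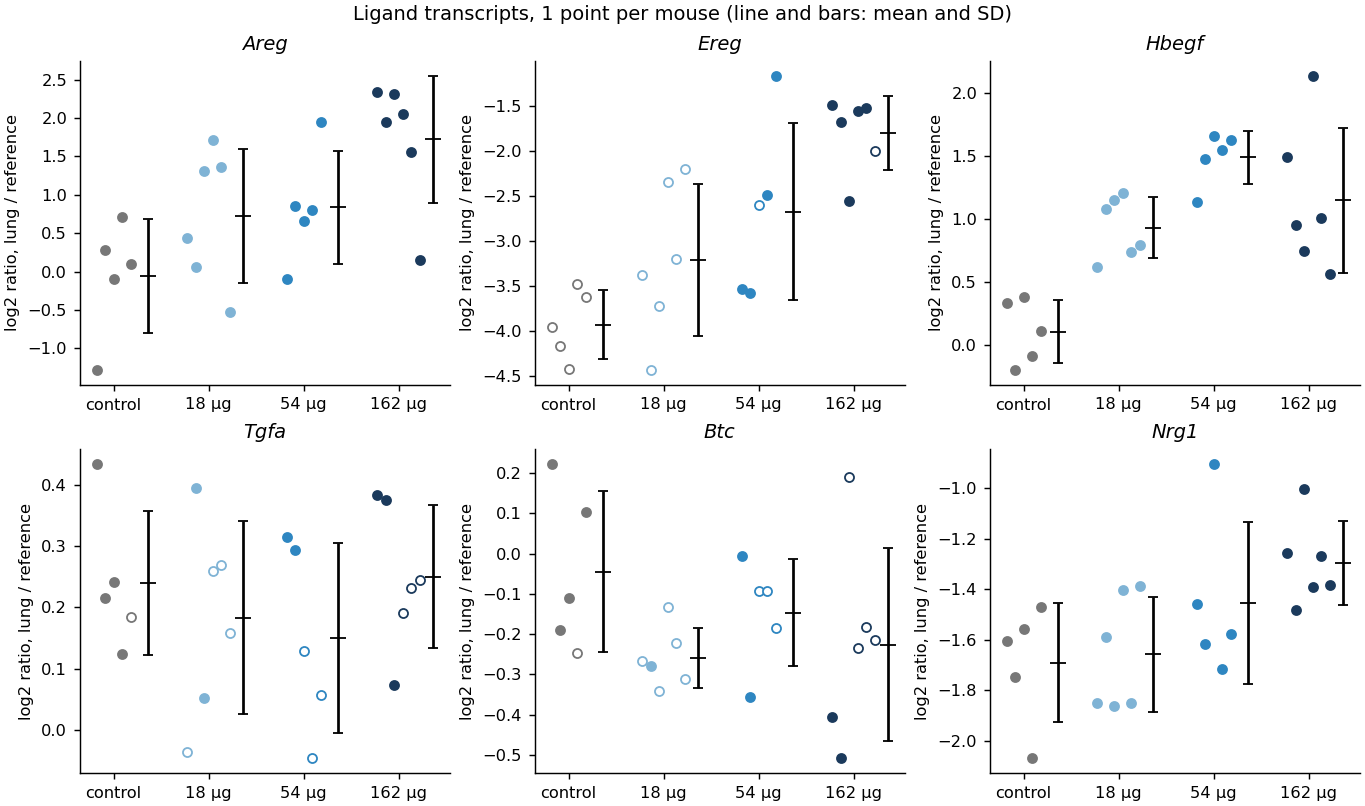
Log2 ratio of lung over reference for the 6 ligand transcripts, with 1 point per mouse by dose and the group mean ± SD at the right of each group; open points are spots not well above background, and each panel has its own vertical scale. Hbegf lies above every control in all treated mice, Areg and Ereg are highest at 162 µg, and the groups overlap for Tgfa, Btc and Nrg1.

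Amphiregulin is released by epithelial and immune cells and supports repair of epithelium. The log2 ratios of Areg in the 5 controls were -1.28, -0.095, 0.10, 0.28 and 0.72. The 6 mice at 18 µg ran from -0.53 over a median of 0.88 to 1.72. At 54 µg the values were -0.10, 0.66, 0.81, 0.86 and 1.95. Both groups overlapped with the controls, with 3 mice of each above every control. At 162 µg the lowest was 0.15, the median 2.00 and the highest 2.35, and 5 of 6 mice lay above every control. The exception, mouse 6, had the lowest value of its group by a wide gap. Its array had the lowest Cy5 signal of all arrays, 1.18 times the local background, and sat on a slide without a control. The fitted change at 162 µg was 1.68 ± 0.40 (SE, 3.21-fold, adjusted p = 0.0182), and without mouse 6 it was 1.86 (adjusted p = 0.0091). The call was lost when control mouse 3 or mouse 1 or 2 of the 162 µg group was left out, with changes that stayed between 1.46 and 1.86 over all 22 such fits. At 18 µg the change was 0.84 (95% confidence interval -6.4e-05 to 1.68, adjusted p = 0.328) and at 54 µg it was 1.11 (0.21 to 2.01, adjusted p = 0.435). When mouse 5 of the 54 µg group was left out, Areg was called at 18 µg as well, with a change of 1.00.

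Epiregulin is a ligand of the EGF receptor and of ERBB4 that is made at low levels in most resting tissues. Its probe was not well above background in any of the 5 controls, nor in the 6 mice at 18 µg, whereas it was in 4 of the 5 given 54 µg and in 5 of the 6 given 162 µg. The control log2 ratios of Ereg were -4.42, -4.16, -3.95, -3.62 and -3.48, and the 18 µg group ran from -4.43 over -3.29 to -2.20. At 54 µg the 5 values were -3.57, -3.53, -2.60, -2.49 and -1.17. At 162 µg the lowest was -2.56, the median -1.62 and the highest -1.49. Every mouse at 162 µg lay above every control, while the 18 and 54 µg groups overlapped with them. The fitted change at 162 µg was 1.79 ± 0.33 (SE, 3.46-fold, adjusted p = 0.00378), and it stayed called in all 22 fits with 1 mouse left out, between 1.51 and 2.01. Because the controls were at background, the value of 3.46 is a difference from a background signal and not a measured fold. A fold was also taken from the normalized Cy5 signals. Their mean was 7.92 on the log2 scale at 162 µg and 5.77 in controls. Each control was then raised to at least the lowest signal well above background on its own array, which gave a fold of 4.28. It is not a lower bound, since the 18 µg group had a mean of 6.52 with no array well above background. The Cy5 signals were taken after a normalization that used both channels, so the reference enters them. They are open to dye bias, since no dyes were swapped. This fold has no slide term. It lies above the fold of the ratio fit, which has a slide term. The confidence interval of the ratio fit, 1.10 to 2.48 in log2 change, holds the log2 of this fold, 2.10. At 54 µg the gene was not called (change 0.83, adjusted p = 0.497).

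Heparin-binding EGF is shed from many cell types, among them macrophages and epithelium. The control log2 ratios of Hbegf were -0.20, -0.087, 0.11, 0.33 and 0.38. At 18 µg they ran from 0.62 over a median of 0.94 to 1.21, and at 54 µg they were 1.13, 1.48, 1.55, 1.63 and 1.66. At 162 µg they ran from 0.57 over 0.98 to 2.14. No treated mouse of any dose overlapped with the controls. Such a separation was found in 1.33% of expressed genes with a value on all arrays compared at 18 µg, in 1.39% at 54 µg and in 3.68% at 162 µg; Hbegf was the 1 member at 18 and 54 µg, and Hbegf and Ereg were the 2 members at 162 µg. The change was 0.77 ± 0.19 at 18 µg (SE, adjusted p = 0.0586), 1.30 ± 0.21 at 54 µg (2.47-fold, adjusted p = 0.0167) and 0.95 ± 0.19 at 162 µg (1.94-fold, adjusted p = 0.00742). The 162 µg call held in all 22 fits with 1 mouse left out. The calls at both 54 and 162 µg were lost when the replicate number of the mouse was added to the fit as a block beside slide. The 54 µg call was lost without control mouse 3 or 5 or without mouse 2 or 4 of the 54 µg group, with changes between 1.18 and 1.45 throughout. Leaving out mouse 5 at 54 µg, mouse 4 at 162 µg or mouse 6 at 162 µg brought the 18 µg change past the threshold.

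The other 3 ligands were not called at any dose. Tgfa, which epithelial cells and macrophages make, had log2 ratios between 0.12 and 0.44 in controls and between -0.047 and 0.40 in treated mice. Its change was -0.030 (95% confidence interval -0.23 to 0.17) at 18 µg, -0.088 (-0.31 to 0.13) with 54 µg and 0.029 (-0.17 to 0.23) at 162 µg. Btc lay between -0.25 and 0.22 in controls and between -0.51 and 0.19 in treated mice. Its change was -0.26 (-0.48 to -0.029, adjusted p = 0.258) at 18 µg, -0.13 (-0.37 to 0.12) with 54 µg and -0.17 (-0.39 to 0.061) at 162 µg. Btc and Tgfa were dim, with 4 of 5 controls and 2 of 6 (Btc) and 3 of 6 (Tgfa) mice at 162 µg well above background. Nrg1, the ERBB3 ligand, ran from -2.07 to -1.47 in controls and from -1.48 over a median of -1.32 upwards at 162 µg, where 5 of 6 mice lay above every control. Its change was -0.038 (-0.36 to 0.28) at 18 µg, 0.16 (-0.18 to 0.50) with 54 µg and 0.33 at 162 µg (0.010 to 0.65, unadjusted p = 0.0438, adjusted p = 0.261 by limma), which does not pass the adjustment.

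**Figure D2:**
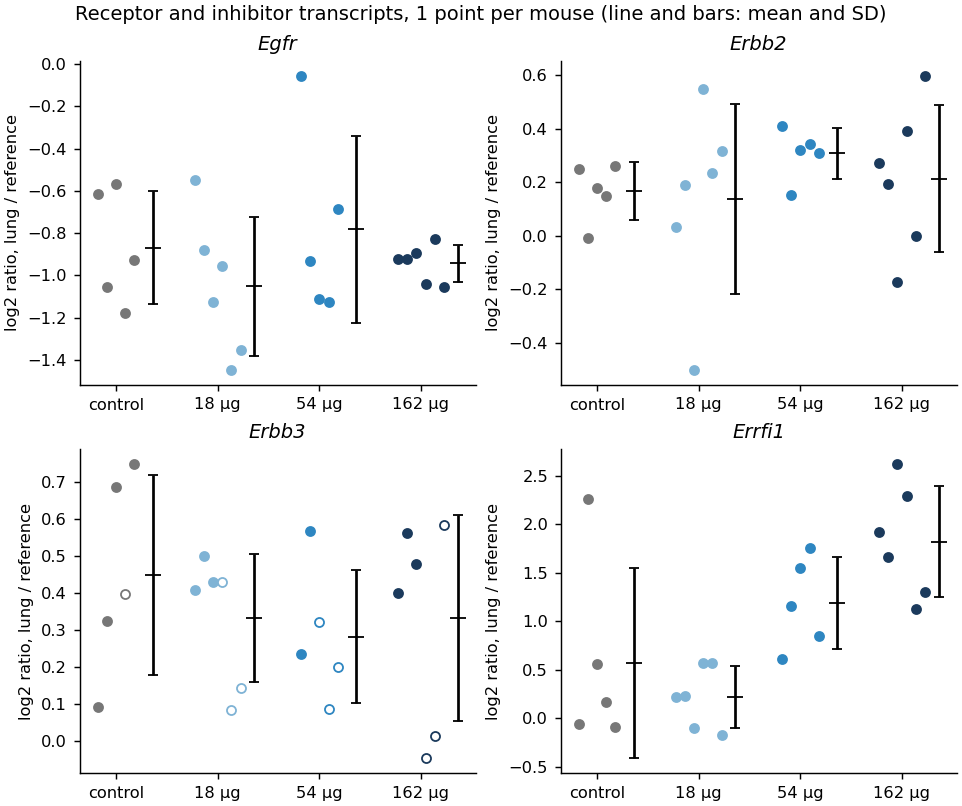
Log2 ratio of lung over reference for the 3 receptor transcripts and Errfi1, with 1 point per mouse by dose and the group mean ± SD beside it; open points are spots not well above background, and each panel has its own vertical scale. On the brightest probe of each gene, as drawn, the receptor groups overlap at every dose. In Errfi1 control mouse 2, at 2.26, lies among the 162 µg mice.

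None of the 3 receptors was called at any dose. Egfr, on the brightest of its 3 probes, had log2 ratios between -1.18 and -0.57 in controls. At 162 µg its 6 mice lay between -1.06 and -0.83, all within the range of the controls. The change of Egfr was -0.12 (95% confidence interval -0.42 to 0.17) at 18 µg, 0.11 (-0.20 to 0.42) with 54 µg and 0.064 (-0.23 to 0.36) at 162 µg. The other 2 Egfr probes carried the accession of a different RefSeq transcript. Probe A_55_P1956863 had a change of 0.32 (0.069 to 0.56, adjusted p = 0.139) at 162 µg with all 6 mice above every control, and probe A_55_P1956862 one of 0.13 (-0.23 to 0.48). Neither was called, and the sign of the brightest probe at 162 µg turned with the processing.
Erbb2, the partner without a ligand, ranged from -0.0076 to 0.26 in controls and from -0.50 to 0.60 in treated mice. Its change was -0.13 (-0.38 to 0.12) at 18 µg, -0.034 (-0.30 to 0.24) with 54 µg and -0.038 (-0.29 to 0.21) at 162 µg. Erbb3 ranged from 0.091 to 0.75 in controls and from -0.047 to 0.58 in treated mice, and was well above background in 4 of 5 controls and 3 of 6 mice at 162 µg. Its change was -0.051 (-0.34 to 0.24) at 18 µg, -0.12 (-0.44 to 0.19) with 54 µg and -0.12 (-0.41 to 0.18) at 162 µg. All 9 of these intervals span 0, and the widest limits among them were -0.44 (Erbb3) and 0.42 (Egfr). With median centring the Egfr change at 162 µg was -0.23, and with the Cy5 channel alone the Erbb2 and Erbb3 changes at that dose were 0.065 and 0.027, none of them called.

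ERBB feedback inhibitor 1 is an early response gene of growth factor and stress signals. The control log2 ratios of Errfi1 were -0.092, -0.060, 0.17, 0.56 and 2.26, the last of them in control mouse 2. At 18 µg the mice ran from -0.17 over 0.22 to 0.57, and at 54 µg the values were 0.61, 0.84, 1.16, 1.55 and 1.75. At 162 µg they ran from 1.13 over 1.79 to 2.62. All 11 mice at 54 and 162 µg lay above 4 of the 5 controls, and 2 of those at 162 µg lay above control mouse 2 as well. The change at 162 µg was 1.19 ± 0.32 (SE, 2.29-fold, adjusted p = 0.0339). Without control mouse 2 it was 1.62 ± 0.26 (adjusted p = 0.00218). The call was the least firm of the 4, since it held in 13 of 22 fits with 1 mouse left out, with changes between 0.90 and 1.62 and adjusted p up to 0.131. It was lost without control mouse 1, 3, 4 or 5, without mouse 1 at 18 µg, and without mouse 2, 3, 4 or 6 at 162 µg. It was lost too without the slides that held no control (1.15, adjusted p = 0.0847), with the deposited table (1.19, adjusted p = 0.0572) and with only the control and 162 µg groups in the fit (1.11, adjusted p = 0.142). The change was -0.35 (95% confidence interval -1.02 to 0.32) at 18 µg and 0.77 (0.047 to 1.49, adjusted p = 0.543) at 54 µg, and the first of these was 0.075 without control mouse 2.

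**Figure D3:**
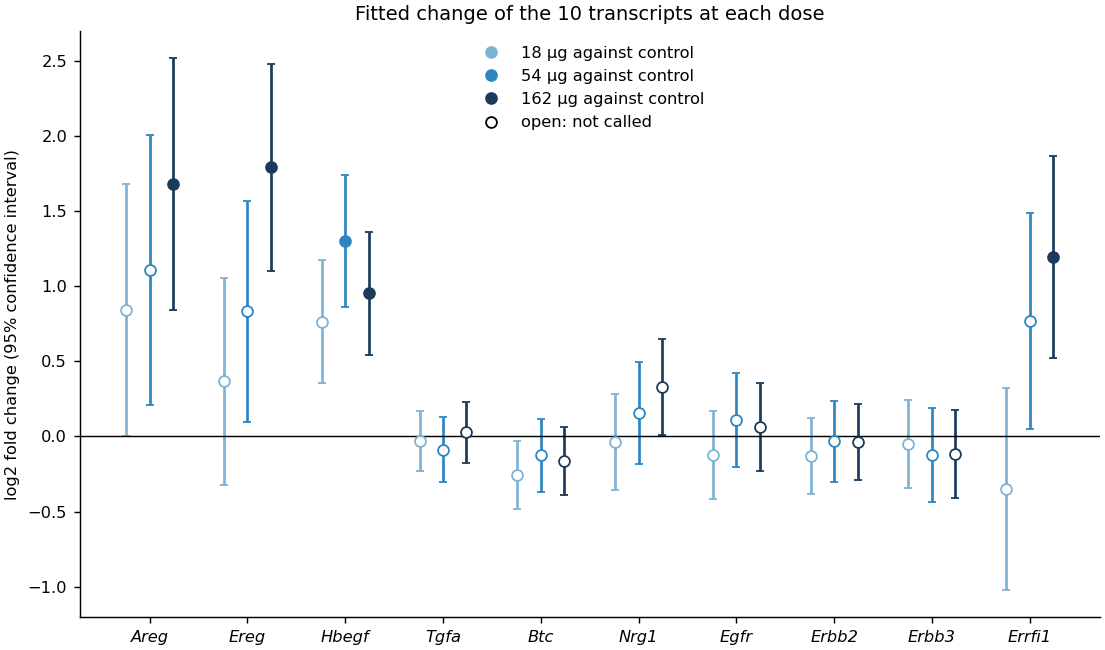
Fitted log2 fold change against control, with its 95% confidence interval, of the 10 transcripts at 18, 54 and 162 µg (filled where called, open where not). Areg, Ereg, Hbegf and Errfi1 are filled at 162 µg and Hbegf at 54 µg. On the brightest probe of each gene, as drawn, the intervals of Tgfa and the 3 receptors span 0 at each dose.

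The doses were also compared with one another. Between 162 and 18 µg, 2 members were called, both higher at 162 µg (3.33% of expressed genes were called higher): Ereg by 1.42 ± 0.31 (SE, adjusted p = 0.0128) and Errfi1 by 1.55 ± 0.30 (adjusted p = 0.00666). The groups did not overlap for Errfi1, whose 162 µg mice began at 1.13 and whose 18 µg mice ended at 0.57, and they overlapped for Ereg. The Ereg probe was not well above background in any mouse at 18 µg, so that its value is a difference from a background signal and not a measured fold. Without control mouse 2 the Errfi1 difference was 1.55 (adjusted p = 0.000979), and without the slides that held no control it was 1.51 and not called (adjusted p = 0.0546). With only the 18 and 162 µg groups in the fit, Errfi1 was called and Ereg was not. Areg differed by 0.84 (95% confidence interval 0.058 to 1.63, adjusted p = 0.265) and Hbegf by 0.19 (-0.19 to 0.57, adjusted p = 0.697). Between 54 and 18 µg no member was called (0.0304% of expressed genes called in either direction), with 2 members, Hbegf (0.54) and Errfi1 (1.12), at an unadjusted p under 0.05 by limma. Between 162 and 54 µg no member and none of the expressed genes (0%) was called, and Ereg alone of the members had an unadjusted p under 0.05 (0.96, adjusted p = 0.416). Hbegf had its highest estimate at 54 µg, but its 162 µg group was lower by only 0.35 (change -0.35, 95% confidence interval -0.76 to 0.061, adjusted p = 0.746), so that these neighbours in the order did not differ beyond their spread.

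**Figure D4:**
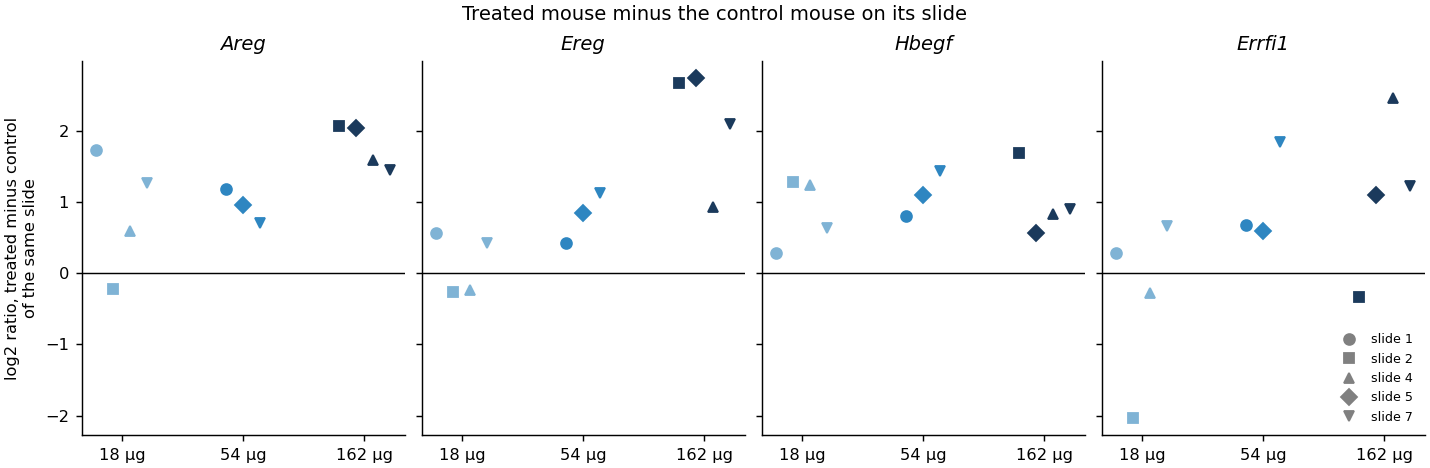
Log2 ratio of a treated mouse minus that of the control mouse on the same slide, for the 4 called genes by dose, with 1 symbol per slide for the 5 slides that held a control. Areg, Ereg and Hbegf lie above 0 on all 4 slides with a 162 µg mouse, and Errfi1 on 3 of 4.

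The slides that held a control could be read without the fit. At 162 µg the 4 same-slide differences were 1.45, 1.60, 2.04 and 2.07 for Areg and 0.92, 2.09, 2.67 and 2.74 for Ereg. Those of Hbegf were 0.57, 0.84, 0.90 and 1.69, and those of Errfi1 were -0.34, 1.10, 1.22 and 2.45. All differences of the 3 ligands were above 0, and the 1 negative value of Errfi1 was on the slide of control mouse 2. At 54 µg the 3 differences were above 0 for each of the 4 genes, from 0.71 to 1.18 for Areg, 0.42 to 1.13 for Ereg, 0.80 to 1.44 for Hbegf and 0.60 to 1.85 for Errfi1. At 18 µg all 4 were above 0 for Hbegf (0.29 to 1.28), 3 of 4 for Areg and 2 of 4 for Ereg and for Errfi1. Btc had no difference above 0 at 18 or 54 µg, between -0.49 and -0.088. On these slides no test was made, and the control of a slide served each treated mouse on it.

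A list of 61 other genes of the pathway was read in the same fit, of which 58 were expressed. At 18 and 54 µg none was called in either direction. Of all expressed genes 0.633% and 0.219% were called higher at these doses, and 1.44% and 0.134% lower. At 162 µg 4 of the 58 were called higher and 1 lower, beside 3.32% and 3.52% of all expressed genes. All 4 that rose belonged to the 12 genes listed as early targets of the pathway, and whether they rose through it was not tested. Myc, a transcription factor of cell growth, rose by 0.98 ± 0.17 (SE, adjusted p = 0.00312). Ier3, a stress response gene, rose by 0.86 ± 0.17 (adjusted p = 0.00522). Fosl1, which codes for the AP-1 subunit FRA1, rose by 0.79 ± 0.17 (adjusted p = 0.0118), and Plaur, the urokinase receptor, by 0.74 ± 0.18 (adjusted p = 0.0235). The gene that fell was Lrig1, a membrane protein that promotes loss of ErbB receptors, with a change of -0.63 ± 0.16 (SE, adjusted p = 0.03). The median change of the 12 targets at 162 µg was 0.52 and that of the 16 expressed feedback genes 0.12. The lower doses gave the targets medians of 0.49 (18 µg) and 0.36 (54 µg), and 10 of the 12 estimates were above 0 for every dose. Lrig1 had an uncalled change of -0.64 (adjusted p = 0.0611) for the 18 µg dose, where 5 of 6 mice lay below every control. In the estimates, neither the rise of the targets nor the fall of Lrig1 was confined to 162 µg. The Lrig1 call was lost on the Cy5 channel alone (-0.42) and without any of 7 single mice, among them control mouse 2, and the Plaur call without any of 5. Myc, Ier3 and Fosl1 were called in all 22 such fits. With median centring or no normalization all 5 calls were lost, the Fosl1 call was lost with the deposited table (0.65, adjusted p = 0.113), and the Lrig1 call with only the control and 162 µg groups in the fit (-0.57, adjusted p = 0.0737).

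**Figure D5:**
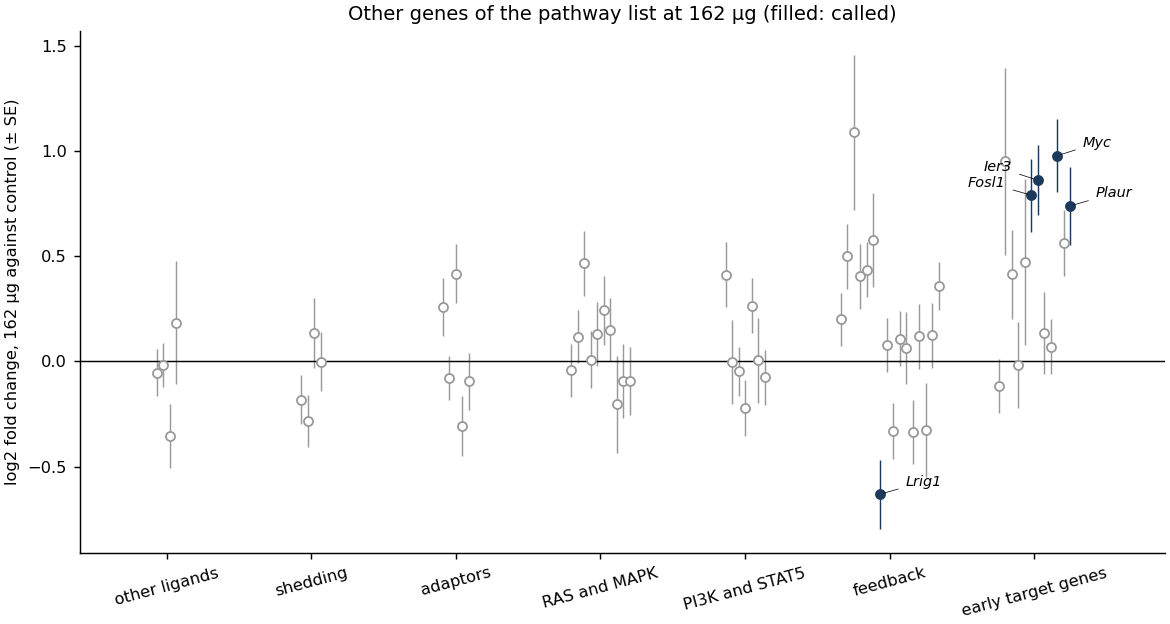
Log2 fold change at 162 µg against control, ± SE, of the 58 expressed genes of the pathway list, by role; filled and named points are called, open points are not. The 4 genes called higher are all early target genes, and Lrig1, a feedback gene, is the 1 called lower.

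The remaining ligands, the fourth receptor and the shedding proteins were read whether called or not. The probes of Nrg3 and Erbb4 were not well above background on any array. At 162 µg Egf had a change of -0.053, Epgn of -0.018, Nrg2 of -0.36 (adjusted p = 0.217) and Nrg4 of 0.18. Adam17, the main protease that releases Areg, Ereg and Hbegf, had a change of -0.28 ± 0.12 (SE, adjusted p = 0.238), and Adam10, which releases Btc and Egf, one of -0.18 ± 0.12 (adjusted p = 0.477). The iRhom genes Rhbdf1 and Rhbdf2, whose products carry ADAM17 to the cell surface, had changes of 0.13 and -6.3e-04. None of these genes was called at any dose. Among the 10 RAS and MAP kinase genes, the 7 PI3 kinase, AKT and STAT5 genes and the 5 adaptors no gene was called either.

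For each called member, the 3 genes whose log2 ratios, centred on the slide mean, followed it most closely over the 22 arrays were taken from 14991 expressed genes, as a description. Areg was followed by Slc23a3 (Pearson's r = 0.947), Eif2s2 (0.922), a subunit of a translation initiation factor, and Dnajc19 (0.914). Ereg was followed by Pappa (0.938), a metalloprotease, and Map3k8 (0.921), a kinase above the MAP kinases. Hbegf was followed less closely, by Nolc1 (0.858), Pno1 (0.852) and 2200002D01Rik (0.851). Errfi1 was followed by Csrnp1 (0.962), Tsc22d3 (0.917) and Cebpd (0.912), a transcription factor. The arrays share slides, reference and dose groups, so these values have no independent points. In control mouse 2, where Errfi1 was high, the log2 ratio was 2.39 for Csrnp1, 3.95 for Tsc22d3 and 2.81 for Cebpd, against at most 0.36, 2.45 and 0.60 in the other controls. Without that mouse the 3 values of r were 0.959, 0.918 and 0.906.

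Some cell type markers were called as well. In whole lung, fewer cells of a type and less RNA per cell cannot be told apart. The mean log2 ratio over the 11 measured neutrophil markers ran from 1.54 over a median of 2.03 to 4.14 in controls, from 1.75 over 1.98 to 2.58 at 18 µg, from 2.09 over 2.50 to 2.93 at 54 µg, and from 1.87 over 2.92 to 4.42 at 162 µg. One of the 11, Il1r2, was called at 162 µg, while Csf3r (-0.22) and Camp (-0.22) had estimates below 0 there without a call. Among 7 recruited monocyte markers Arg1 was called higher at all 3 doses and Ly6c1 at 162 µg. The list did not move as 1: Ccr2 (-0.51) and Fcgr1 (-0.57) had estimates below 0 at 162 µg without a call. The median of the list mean was 0.57 in controls and 1.06 at 162 µg. Called lower at 162 µg were 3 of 8 ciliated cell markers, 1 of 5 club cell markers and 2 of 4 B cell markers. Of all expressed genes, 3.52% were called lower and 3.32% higher at this dose. Single markers were also called higher at 162 µg for alveolar macrophages (Marco), eosinophils (Ear6) and alveolar type 1 cells (Pdpn). They are not read as a change of the cell type. In the eosinophil list Siglecf (-0.64) and Il5ra (-0.37) had estimates below 0 without a call, and the median of the list mean was 1.06 in controls and 0.83 at 162 µg. At 18 µg 0.633% of expressed genes were called higher and 1.44% lower. Chil3 (alveolar macrophages) and the endothelial marker Kdr were called higher at that dose and the club cell marker Aldh1a1 lower. In the alveolar macrophage list Fabp1 (-1.17 at 18 µg, -1.50 at 162 µg) and Siglecf (-0.61 and -0.64) had estimates below 0 without a call. The median of that list mean was 3.84 in controls, 4.08 at 18 µg and 4.11 at 162 µg. No marker of alveolar type 2 cells (7), basal cells (4) or smooth muscle (5) was called at any dose. The part of these differences in the changes of Areg, Ereg, Hbegf and Errfi1 was not tested.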

How the data were processed

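Right lungs of 22 mice were measured on 22 two-colour Agilent arrays (5 control, 6 at 18 µg, 5 at 54 µg, 6 at 162 µg). The authors deposited Feature Extraction output with red (Cy5, lung) and green (Cy3, reference) median intensity per spot, and a table of log2 ratios. The medians of that table ran from -0.052 to -0.017 by array and its correlation with the ratios used here was at least 0.834; its exact scaling is unknown, and it served as an alternative only. Outlier spots (0.342% to 4.42%) were left out, no background was subtracted, ratios were loess-normalized (span 0.3) within arrays, and replicate spots were summarised by their median.

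Dose and slide were fitted in limma 3.58.1 (R 4.3.3) on all 55681 probes, with 12 residual degrees of freedom, and p-values were adjusted by Benjamini-Hochberg over all probes in each of 6 contrasts. This follows the treatment and slide terms of the study's analysis of variance, with limma in place of its shrinkage test. The limit for expression was set at the trimmed mean plus 3 trimmed SDs of the Cy5 signal of 308 negative control spots. Of the probes, 26413 were named through RefSeq accessions and 29268 were not; a gene was read on its brightest probe. Named were the 10 members, the pathway genes called at a dose, 10 further ligands, receptors and shedding genes whether called or not, and the 3 genes most like each called member, of which 1 is not reported here. The members and lists were chosen with earlier results of these data known. Each mouse is 1 array, and p-values measure the spread between mice. The procedure was tested on simulated data. Alternatives were normexp correction, median centring, no normalization, the Cy5 channel alone, the deposited table, other sample sets, slide and replicate terms, other probe rules, and each mouse left out. Figures were drawn with matplotlib 3.10.9. Array number and signal over background limit the precision.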

Additional observations from a re-analysis of the deposited data

Results flagged for a closer look

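In the 40 groups of 5 or 6 mice tested with Dixon's criterion, 2 held a mouse far from the others, and chance marks about 1 group in 20. The lowest Areg value at 162 µg, 0.15 in mouse 6, stood apart with a gap of 0.641 of the range of its group. The array of this mouse had the lowest Cy5 signal over local background of all arrays (1.18). Without this mouse the Areg change at that dose was 1.86 (adjusted p = 0.0091). The highest Errfi1 value among the controls, 2.26 in control mouse 2, stood apart with a gap of 0.721 of the range. The same mouse had the highest mean of the neutrophil markers among the controls, 4.14, and without it the Errfi1 change at 162 µg was 1.62 (adjusted p = 0.00218).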

How the results depend on the processing

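Over 15 alternatives and 22 fits with 1 mouse left out, no called change of a member turned its direction, and the cause of the shifts below was not tested. With median centring the count of called members was 0 at 54 µg, 0 at 162 µg and 1 (Errfi1) for 162 against 18 µg, and with no normalization 0 in all 3. With the deposited table, or with only the compared groups in the fit, it was 1 (Errfi1) for 162 against 18 µg and 3 at 162 µg (Errfi1 lost), and with only the compared groups 4 at 54 µg (Areg, Ereg, Hbegf and Errfi1). With slide as a random block it was 1 at 18 µg (Hbegf). Without the slides that held no control, an alternative chosen after seeing the data, it was 1 at 18 µg (Hbegf) and 1 for 162 against 18 µg (Ereg). Deviations from the group means of same-numbered mice of different groups correlated between -0.17 and 0.624 over 31 pairs, with a median of 0.172 against -0.056 in other pairs (0.107 against -0.078 off the same slide). Since not every pair was above 0.1 and the labels name no shared batch, the numbers were not taken to pair the mice. This rule cannot decide the pairing, because pairs of different number on the same slide also went down to -0.249, and slide was fitted. With the replicate number as a block beside slide the count was 0 at 54 µg and 2 at 162 µg (Areg and Ereg), with 7 residual degrees of freedom. Hbegf at 162 µg was then 0.93 (adjusted p = 0.0983), and of the pathway genes called at that dose Myc alone was called. With 1 mouse left out the counts ranged from 0 to 2 for the 18 µg dose, 0 to 1 for 54 µg, 2 to 4 for 162 µg and 2 to 3 for 162 against 18 µg, and were 0 throughout for 54 against 18 µg and 162 against 54 µg.

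Estimates of uncalled members changed sign in 37 cases. Tgfa at 18 µg was 0.0094 with normexp, 0.0058 with median centring and 0.23 on the Cy5 channel, and at 54 µg 0.11 without normalization, 0.024 in the deposited table and 0.0040 with the replicate block. Egfr at 162 µg was -0.23 with median centring, -0.24 without normalization, -0.074 without a slide term and -0.0052 with slide as a random block, at 54 µg -0.00078 with only the compared groups, and at 18 µg 0.032 with the replicate block and 0.050 as the median of its probes. Ereg at 18 µg was -0.055 without normalization. Btc was 0.035 at 54 µg without normalization and 0.073 at 18 µg on the Cy5 channel. Erbb2 at 54 µg was 0.10 without normalization, 0.071 on the Cy5 channel and without the slides that held no control, 0.072 with only the compared groups, 0.14 without a slide term or with the replicate block, and 0.056 with slide as a random block. Erbb2 at 18 µg was 0.0011 on the Cy5 channel, and at 162 µg it was 0.065 on that channel, 0.0056 in the deposited table, 0.047 without a slide term and 0.0059 with slide as a random block. Erbb3 was 0.020 at 54 µg without normalization, 0.30 at 18 µg and 0.027 at 162 µg on the Cy5 channel, and 0.11, 0.022 and 0.16 at 18, 54 and 162 µg in the deposited table. Nrg1 at 18 µg was 0.14 in the deposited table and 0.033 without a slide term, and at 54 µg -0.053 with only the compared groups.
With 1 mouse left out, signs of uncalled members also changed. At 18 µg the ranges were -0.077 to 0.071 for Tgfa, -0.17 to 0.042 for Nrg1, -0.14 to 0.11 for Erbb3 and -0.55 to 0.075 for Errfi1. For the 54 µg dose they were -0.10 to 0.045 for Erbb2 and -0.22 to 0.052 for Erbb3, and for 162 µg they were -0.017 to 0.075 for Tgfa, -0.12 to 0.069 for Erbb2 and -0.18 to 0.049 for Erbb3.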
